A study of Homo sapiens with 6 samples.

Results

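The genes described here encode the degradative enzymes, membrane proteins and regulators of the lysosome. They are 43 genes matched by symbol, and all 43 had a row among the 39739 gene rows of the deposited RNA-seq tables. The question put to them was whether *GALC*, one of the genes higher in the overexpressing cells, stood alone or with other lysosomal genes. The study sequenced RNA of HGC27, an established line of undifferentiated gastric cancer cells, in 2 groups of 3 libraries. The first, HGC27-FN1 3′-UTR, carried the *FN1* 3′-UTR by stable lentiviral overexpression and is called the overexpressing cells here. The second, HGC27-control, is labelled only as control. The labels do not say whether the 3 libraries of a group came from separate cultures, so p-values measure the spread between these libraries, which may be technical.

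Lysosomes are acidic compartments in which proteins, glycans and lipids are broken down. A proton pump acidifies the lumen, soluble hydrolases work there, and membrane glycoproteins and transporters line the compartment and export the products. *GALC*, galactosylceramidase, removes galactose from galactosylceramide, and its loss causes Krabbe disease. Many lysosomal genes share a DNA element in their promoters that is bound by the transcription factors *TFEB* and *TFE3*, so that lysosomal genes are known to be regulated together when cells starve or store undigested material.

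Expression was deposited as RPKM, which scales the reads of a gene to its exon length and to the gene reads of the whole library. Whole reads could be recovered from these values, and the libraries held between 16357085 and 37037532 of them. The 2 groups were compared by limma on the scale log2(RPKM + 0.1), two-sided, for 23299 genes that reached 0.1 RPKM in 3 or more libraries, and p-values were adjusted after Benjamini and Hochberg over all of these genes. Log2 fold changes are those of overexpressing over control cells on this scale, which understates changes at low RPKM. The overexpressed gene *FN1* itself had 0.777, 0.745 and 0.819 RPKM in overexpressing cells against 0.543, 0.474 and 0.532 RPKM in control cells, a log2 fold change of 0.52 (limma adjusted p = 0.0292). Its deposited value covers all exons and does not separate the 3′-UTR.

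Of the 43 lysosomal genes, 42 were tested and 1, *CTSH*, had too few reads. At a limma adjusted p under 0.05, 3 were higher in overexpressing cells (*GALC*, *CTSZ* and *CTSC*) and 3 were lower (*TFEB*, *CTSB* and *PSAP*). Among all genes tested, 5.62% were higher and 7.36% were lower, against 7.14% of the lysosomal genes in each direction. The 3 higher genes include *GALC*, which was put in the question because it was higher. The share of higher lysosomal genes therefore counts a gene known beforehand and is only a description. The study's criteria for DEGs ask for a log2 fold change beyond 1 in either direction and P under 0.05 before adjustment. Applied to the limma fit made here, they were passed only by *GALC* and *CTSZ*, both upregulated. By this fit 1.65% of all tested genes were upregulated and 0.815% were downregulated, and these need not be the DEGs that the study listed. *GALC* had the largest log2 fold change of the 42 genes. The median log2 fold change of the 42 genes was 0.02, against -0.04 for all genes tested. *GALC* and *CTSZ* passed the filter on low RPKM only through the overexpressing libraries, so a difference was built into their being tested.

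Without *GALC*, *CTSZ*, *TFEB* and *IDUA*, the log2 fold changes of the remaining 38 tested genes lay between -0.24 and 0.37. The genes left out had the largest absolute log2 fold changes of the 42, so this range is narrow by choice. Of all 42 tested genes, 36 had an absolute log2 fold change under 0.25. The 95% interval of the log2 fold change lay within 0.5 on either side of zero for 34 of the 42 genes. The shares of all tested genes within these limits were not counted, and small changes were common among them. At a mean of 2 to 5 RPKM, which holds 13 of the lysosomal genes, their 5th and 95th percentiles were -0.41 and 0.38. At 10 to 20 RPKM, with 7 lysosomal genes, the percentiles were -0.28 and 0.28. In 14 of the 42 genes, 33.3%, the values of one group lay entirely above or below those of the other, while 36% of all tested genes did so. Of these 14 genes, 8 were higher and 6 were lower in overexpressing cells. The 43 genes summed to 523, 514 and 526 RPKM in overexpressing cells and to 498, 513 and 543 RPKM in control cells, and the groups overlapped in this sum.

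**Figure D1:**
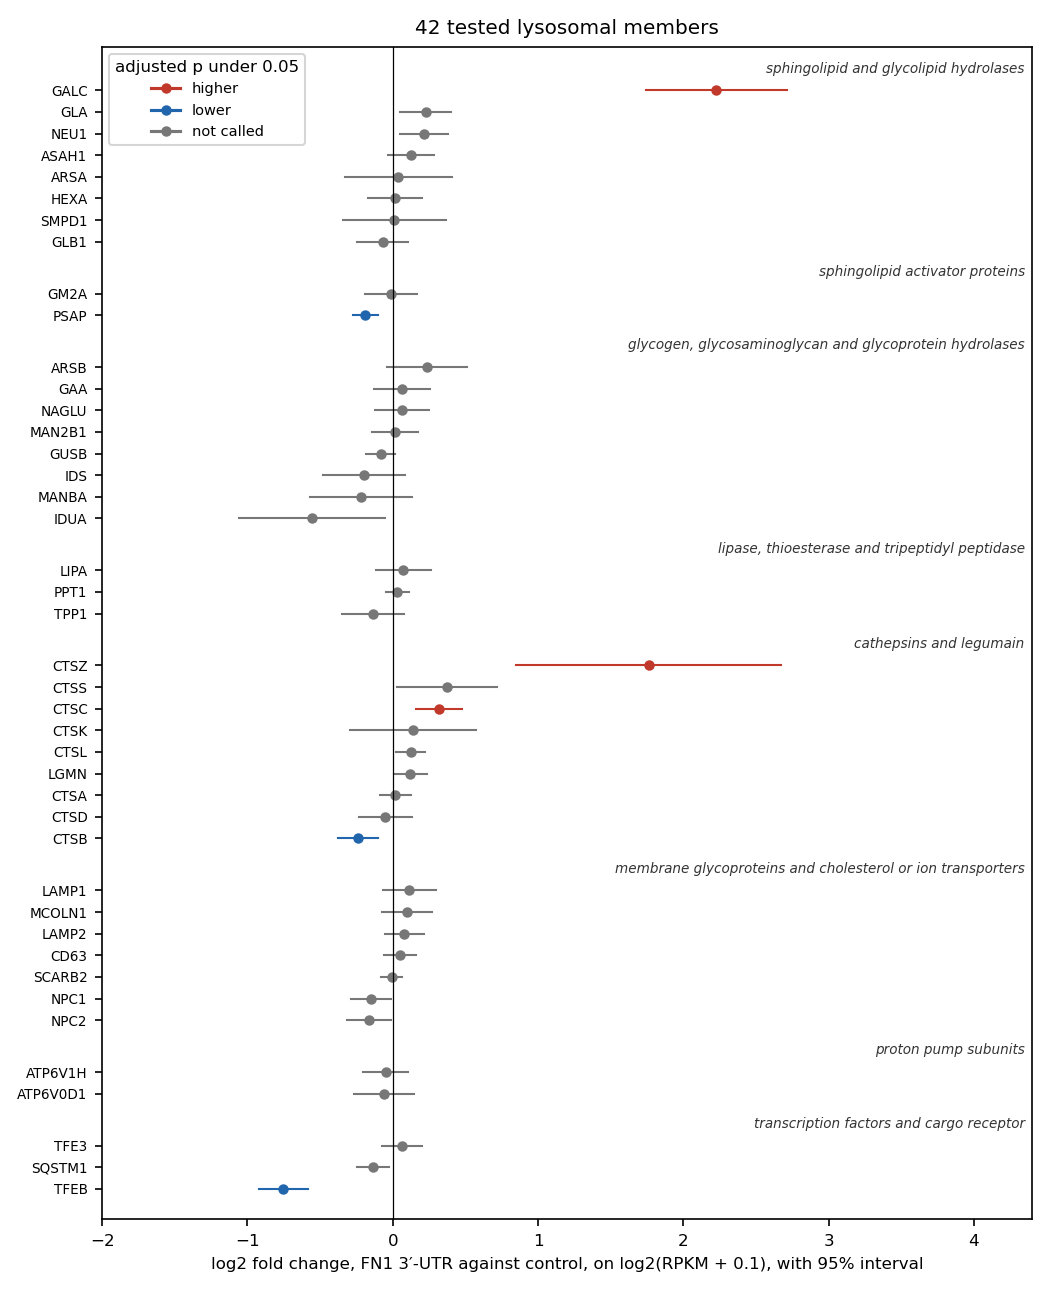
Log2 fold change of each of the 42 tested lysosomal genes on log2(RPKM + 0.1), overexpressing over control, grouped by role, with 95% intervals from limma as lines. Red and blue points are the 3 higher and 3 lower genes at an adjusted p under 0.05. *GALC* at 2.23 and *CTSZ* at 1.76 lie far to the right of the others, and *TFEB* at -0.75 lies farthest to the left.

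The split between higher and lower genes depended on the scaling of the libraries and on the model. This held for the lysosomal genes and for all tested genes, though not to the same extent. Median-ratio scaling moved the median log2 fold change of all tested genes from -0.04 to -0.0031. It gave 5 higher and 2 lower of the 42 lysosomal genes at a limma adjusted p under 0.05. Of all tested genes, 7.28% were higher and 5.71% were lower. With that scaling *NEU1* and *CTSL* joined the higher genes (limma adjusted p = 0.0493 and 0.0499) and *CTSB* was no longer among the lower ones (limma adjusted p = 0.0578). With limma's voom on the recovered reads, a different model, 10 of the 42 were higher and 4 were lower, where 11.1% and 10.4% of all tested genes were. Voom raised the share of all tested genes called in either direction from 13% to 21.5%. In that fit *ARSB*, *ASAH1*, *CTSL*, *CTSS*, *GLA*, *LGMN* and *NEU1* were also higher, with log2 fold changes from 0.15 for *LGMN* and *CTSL* to 0.44 for *CTSS*, and *IDUA* was also lower, by 0.59 on the log2 scale.

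Sphingolipid and glycolipid hydrolases were the group that holds *GALC*, with 8 genes, all tested. *GALC* was higher and the other 7 did not pass the test, with log2 fold changes between -0.07 and 0.23. *GALC* spans 87837820 to 87993665 on chromosome 14 (GRCh38), reverse strand, with 6825 bases of merged exons. It had 0.385, 0.42 and 0.517 RPKM in overexpressing replicates 1 to 3 and 0.00656, 0.019 and 0.0198 RPKM in control replicates 1 to 3. All 3 overexpressing libraries lay far above the control libraries, in which *GALC* was barely detected. Behind these values were 43, 70 and 103 reads in overexpressing cells and 1, 4 and 5 reads in control cells. Over the pooled libraries the ratio of read rates was 27.8, with an exact 95% interval from 14.8 to 58.9 that covers counting error only. The log2 fold change was 2.23 (95% interval 1.74 to 2.71, limma adjusted p = 0.0025), and with pseudocounts of 1 and 0.01 it was 0.50 and 4.20. The adjusted p for *GALC* stayed under 0.05 in all 16 alternative fits that tested it. These fits share libraries, and some differ only in the filter. Wherever the filter was used, *GALC* was tested only through the overexpressing libraries, so the fits are not independent support.

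let-7i-5p is a microRNA that the study placed in a network between the *FN1* 3′-UTR and its target genes. Its mature sequence (RefSeq, GRCh38.p14, chr12:62603691-62603712, forward strand) is shown with the seed, bases 2 to 8, in capitals.

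hsa-let-7i-5p: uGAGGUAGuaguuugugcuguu

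The 7-base match to this seed, CTACCTC, was sought in the annotated 3′-UTRs of GENCODE release 29. It was present in 5 of the 43 lysosomal genes (11.6%), *GALC*, *ASAH1*, *IDS*, *TPP1* and *CTSC*, and in 1539 of 13060 tested genes with an annotated 3′-UTR (11.8%). A gene was counted if any annotated protein-coding transcript held the match, and which transcripts these cells use was not tested. In *GALC* and *CTSC* the match lies far inside the span of the gene, which ends at 87837820 and 88293592 on the reverse strand. That span covers all transcripts. In an annotated transcript that holds the match, it begins at base 605 of a 3′-UTR of 1718 bases in *GALC*. In *CTSC* it begins at base 176 of 5622. The windows of 23 bases around the match, with the match in capitals, are shown for *GALC* and *CTSC*, which were higher, and for *IDS* and *TPP1*, which had the lowest log2 fold changes among the 5. All are on the reverse strand of GRCh38: *GALC* at chr14:87934116-87934138, *CTSC* at chr11:88326246-88326268, *IDS* at chrX:149480051-149480073 and *TPP1* at chr11:6612932-6612954.

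*GALC*: tctttaataaaCTACCTCtaaca
*CTSC*: gtcctggtgacCTACCTCcaagg
*IDS*: cttgcctatccCTACCTCcctcc
*TPP1*: gccccctgtgcCTACCTCtagca

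The log2 fold changes of the 5 genes holding the match were 2.23 for *GALC*, 0.32 for *CTSC*, 0.12 for *ASAH1*, -0.14 for *TPP1* and -0.20 for *IDS*. They moved in both directions, and their median of 0.12 compares with 0.02 for the lysosomal genes without the match. Over all tested genes the medians were -0.05 with the match and -0.04 without it. A match of letters is a description and not a site of binding.

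The other 7 hydrolases of this group were expressed at levels from 0.8 RPKM (*ARSA*) to 7.62 RPKM (*GLA*), averaged over the 6 libraries. *GLA*, alpha-galactosidase A, removes the terminal galactose of globotriaosylceramide, and had 7.49, 8.33 and 8.87 RPKM in overexpressing cells against 6.66, 6.95 and 7.41 RPKM in control cells. *NEU1*, a sialidase, had 2.83, 2.69 and 2.78 RPKM against 2.19, 2.38 and 2.54 RPKM. In both genes the groups did not overlap, with log2 fold changes of 0.23 and 0.22, and neither passed the test (limma adjusted p = 0.0949 and 0.0937). *ASAH1*, acid ceramidase, had a log2 fold change of 0.12 (limma adjusted p = 0.265). *GLB1*, *HEXA*, *ARSA* and *SMPD1* had log2 fold changes between -0.07 and 0.04 and overlapping groups. *ARSA*, which removes sulfate from sulfatide in the step before *GALC*, had 0.81 ± 0.088 RPKM in overexpressing cells and 0.791 ± 0.144 RPKM in control cells (SD, n = 3 each).

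Sphingolipid activator proteins help the hydrolases to reach their membrane lipids. *PSAP*, the precursor of the saposins, on chromosome 10 from 71816298 to 71851375, had 68.5, 67.4 and 70.8 RPKM in overexpressing cells and 75.8, 78.9 and 81.2 RPKM in control cells. Every overexpressing library lay below every control library. The log2 fold change was -0.19 (95% interval -0.28 to -0.10, limma adjusted p = 0.0218). *PSAP* was at a limma adjusted p = 0.0508 once the replicate number was added to the fit as a block. *GM2A*, the activator of GM2 ganglioside breakdown, had a log2 fold change of -0.01 with overlapping groups. *GALC* depends on a saposin made from *PSAP*, and these genes moved in opposite directions.

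Hydrolases of glycogen, glycosaminoglycans and glycoproteins comprised 8 genes, and none passed the test. Their median log2 fold change was -0.03, with a range from -0.55 to 0.23, and the groups overlapped in all 8. *IDUA*, alpha-L-iduronidase, had 0.321, 0.348 and 0.539 RPKM in overexpressing cells and 0.526, 0.746 and 0.621 RPKM in control cells. Replicate 3 of the first group lay above replicate 1 of the second. The log2 fold change was -0.55 (95% interval -1.06 to -0.05, limma adjusted p = 0.137), and *IDUA* shares exonic bases with *SLC26A1* on the other strand. *ARSB*, which cuts sulfate from dermatan sulfate, had a log2 fold change of 0.23, and *MANBA*, beta-mannosidase, one of -0.22. *GUSB*, beta-glucuronidase, was the most highly expressed gene of this group at 11.6 RPKM, with a log2 fold change of -0.08 (95% interval -0.18 to 0.02). *GAA*, which degrades glycogen, had 6.69 ± 0.411 RPKM and 6.4 ± 0.582 RPKM in overexpressing and control cells (SD, n = 3 each).

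*LIPA*, *PPT1* and *TPP1*, a lipase, a palmitoyl thioesterase and a tripeptidyl peptidase, did not pass the test. *PPT1* had 38.6, 39.7 and 39.6 RPKM in overexpressing cells and 37.5, 38 and 39.9 RPKM in control cells, so that the groups overlapped. The log2 fold change of *PPT1* was 0.03 with a 95% interval from -0.05 to 0.11, a narrow interval that rests on 9117 and 11521 reads in the groups. *LIPA* and *TPP1* had log2 fold changes of 0.07 and -0.14.

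**Figure D2:**
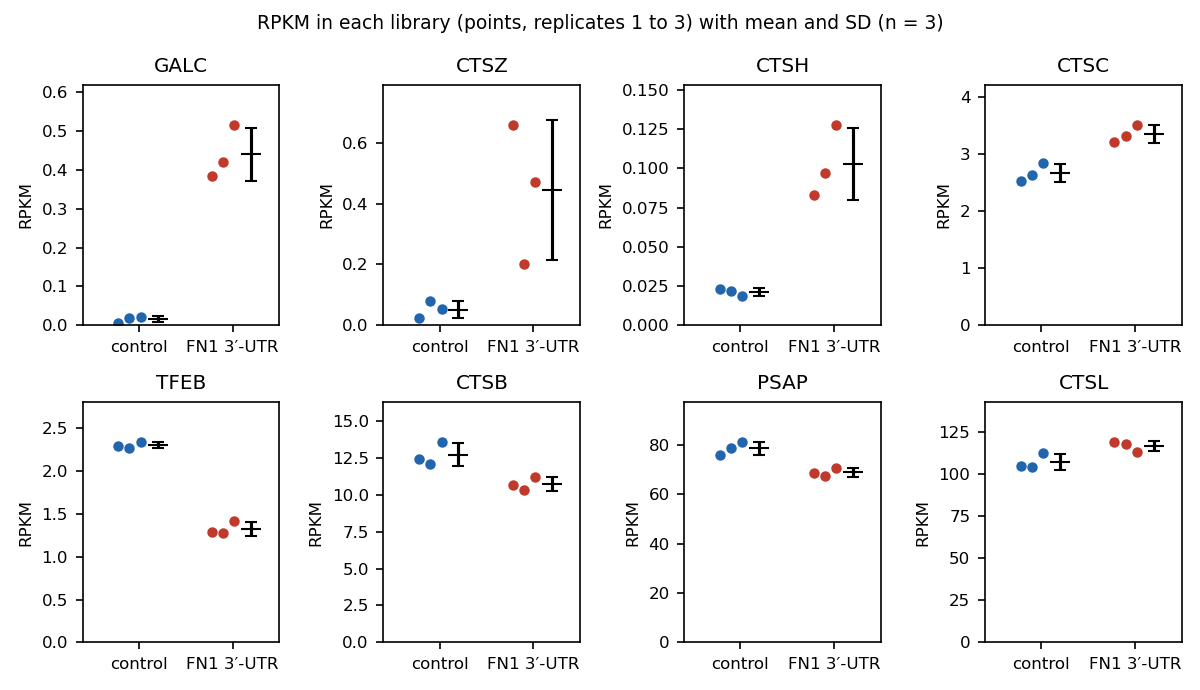
RPKM of 8 lysosomal genes in each library, with control libraries in blue, overexpressing (*FN1* 3′-UTR) libraries in red, and the mean and SD of 3 libraries in black. Each panel starts at 0 and has its own scale. *GALC*, *CTSZ* and *CTSH* lie near 0 in the control libraries, *TFEB* is 1.33 against 2.3 RPKM on average, and *CTSC*, *CTSB*, *PSAP* and *CTSL* differ by small amounts.

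Cathepsins and legumain, the lysosomal proteases, were the largest group. Of 10 genes, 9 were tested, of which 2 were higher, 1 was lower and 6 did not pass. Of all tested genes, 5.62% were higher and 7.36% were lower. The calls of *CTSZ*, *CTSC* and *CTSB* were each lost in some of the alternative fits. *CTSZ*, a carboxypeptidase on chromosome 20 from 58995185 to 59007247, had 0.66, 0.201 and 0.47 RPKM in overexpressing cells and 0.022, 0.0796 and 0.053 RPKM in control cells. The overexpressing libraries lay above the others but spread widely among themselves. Only 60 reads in overexpressing cells and 10 reads in control cells lay behind these values, with 22, 10 and 28 reads and 1, 5 and 4 reads in the replicates. The ratio of pooled read rates was 7.73 (exact 95% interval 3.93 to 16.9, counting error only). The log2 fold change was 1.76 (95% interval 0.85 to 2.67, limma adjusted p = 0.0315). The call for *CTSZ* was lost with the replicate block (limma adjusted p = 0.0912) and with a pseudocount of 1 (log2 fold change 0.45, limma adjusted p = 0.0547). It was also lost in 5 of 6 fits that left out a library and kept the tested genes, where the limma adjusted p lay between 0.0229, without overexpressing replicate 2, and 0.091.

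*CTSC*, the dipeptidyl peptidase that activates serine proteases of leukocytes, lies on chromosome 11 from 88293592 to 88337787. It had 3.22, 3.32 and 3.52 RPKM in overexpressing cells and 2.54, 2.63 and 2.85 RPKM in control cells. The groups did not overlap, and the log2 fold change was 0.32 (95% interval 0.16 to 0.47, limma adjusted p = 0.0284). *CTSB*, an abundant cysteine protease, had 10.7, 10.3 and 11.2 RPKM against 12.4, 12.1 and 13.6 RPKM. Here every overexpressing library was below every control library, with a log2 fold change of -0.24 (95% interval -0.38 to -0.10, limma adjusted p = 0.0407). With the replicate block the limma adjusted p was 0.0546 for *CTSC* and 0.0438 for *CTSB*. Leaving out a library took the limma adjusted p for *CTSB* to between 0.0598 and 0.114 in every such fit. For *CTSC* it lay between 0.0394 and 0.1, under 0.05 without control replicate 3 alone, and for *PSAP* it lay between 0.0279 and 0.0852, under 0.05 without overexpressing replicate 3 and without control replicate 1.

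*CTSH*, an aminopeptidase, did not reach the filter and was not tested. It had 0.083, 0.0973 and 0.128 RPKM in overexpressing cells and 0.0228, 0.022 and 0.0183 RPKM in control cells. The groups did not overlap, with 44 reads in the overexpressing libraries together and 11 in the control libraries, a ratio of read rates of 5.15 (exact 95% interval 2.62 to 11.1, counting error only). Without a filter *CTSH* was among the higher genes at a limma adjusted p under 0.05.

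*CTSL* was the most highly expressed of all 43 genes, with 119, 118 and 113.3 RPKM in overexpressing cells and 105, 104 and 112.7 RPKM in control cells. The groups just failed to meet. Its log2 fold change was 0.12 (95% interval 0.03 to 0.22, limma adjusted p = 0.1). *LGMN*, an asparagine-specific protease, had 19, 18.6 and 18.8 RPKM against 16.3, 17.2 and 18.4 RPKM, with a log2 fold change of 0.12 (limma adjusted p = 0.144). *CTSS*, best known from antigen-presenting cells, had a log2 fold change of 0.37 with overlapping groups (95% interval 0.03 to 0.72, limma adjusted p = 0.141). *CTSK*, the collagen-degrading cathepsin of osteoclasts, had 0.389, 0.369 and 0.49 RPKM against 0.451, 0.361 and 0.3 RPKM, a log2 fold change of 0.14. *CTSD* and *CTSA* had log2 fold changes of -0.05 and 0.02. *CTSA* forms a complex with *NEU1* and *GLB1*, whose log2 fold changes were 0.22 and -0.07.

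Membrane glycoproteins and transporters numbered 7 genes, and none passed the test. *CD63*, a tetraspanin and the second most highly expressed of the 43 genes, had 113, 109 and 114 RPKM in overexpressing cells and 103, 108 and 115 RPKM in control cells, with overlapping groups and a log2 fold change of 0.05 (95% interval -0.06 to 0.16). *LAMP1* and *LAMP2*, the main glycoproteins of the lysosomal membrane, had log2 fold changes of 0.12 and 0.08 with overlapping groups. *MCOLN1*, a calcium channel, had one of 0.10, and *SCARB2*, a membrane protein of the lysosome, one of -0.01. *NPC1* and *NPC2*, which together move cholesterol out of the lysosome, were the members of this group whose libraries did not overlap. *NPC1* had 1.76, 1.77 and 1.77 RPKM in overexpressing cells and 1.95, 2 and 1.95 RPKM in control cells. *NPC2* had 13.4, 13.4 and 14.1 RPKM against 14.7, 14.5 and 16.8 RPKM. Their log2 fold changes were -0.15 and -0.16, and neither passed the test (limma adjusted p = 0.142 for each). The proton pump subunits *ATP6V0D1* and *ATP6V1H* had log2 fold changes of -0.06 and -0.05 with overlapping groups.

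**Figure D3:**
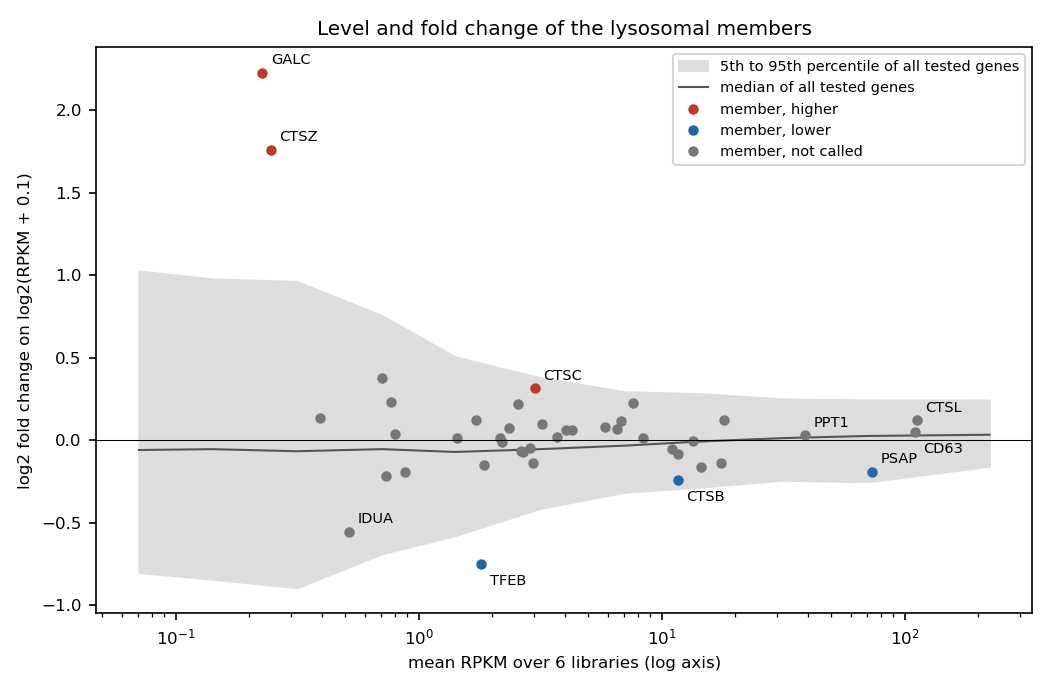
Mean RPKM over the 6 libraries on a log axis against the log2 fold change on log2(RPKM + 0.1) for the 42 tested lysosomal genes as points, with the median (line) and the 5th to 95th percentiles (grey band) of all tested genes at that level. *GALC* and *CTSZ* lie above the band at a mean RPKM of 0.228 and 0.248, *TFEB* lies below it at 1.82, and most lysosomal genes lie inside it.

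*TFEB*, the transcription factor that drives lysosomal genes, was the member with the largest decrease. It lies on chromosome 6 from 41683978 to 41736259. *TFEB* had 1.29, 1.28 and 1.42 RPKM in overexpressing replicates 1 to 3 and 2.29, 2.28 and 2.34 RPKM in control replicates 1 to 3. The libraries of each group lay close together and far from those of the other. *TFEB* thus stood at 0.576 of its control level, with a log2 fold change of -0.75 (95% interval -0.92 to -0.59, limma adjusted p = 0.00264) and 529 and 1175 reads in the groups. The adjusted p for *TFEB* stayed under 0.05 in all 20 alternative fits, which share libraries, with log2 fold changes between -0.80 and -0.51. *TFE3*, its close relative, had 4.5, 4.33 and 4.29 RPKM against 3.95, 4.14 and 4.46 RPKM, with overlapping groups and a log2 fold change of 0.06 (95% interval -0.07 to 0.20). *SQSTM1*, the cargo receptor p62 of autophagy, had 16.9, 15.8 and 17.5 RPKM in overexpressing cells and 17.9, 18.5 and 18.8 RPKM in control cells. Its groups did not overlap, and its log2 fold change was -0.14 (95% interval -0.25 to -0.03, limma adjusted p = 0.103). *SQSTM1* shares exonic bases with *MGAT4B* and *C5orf45* on the other strand.

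The element bound by *TFEB* and *TFE3* is built around CACGTG, and its stricter form is TCACGTGA, which contains CACGTG. Both read the same on the other strand. They were sought in promoters from RefSeq (GRCh38.p14), the 250 bases before and 50 bases after each start site, which were given for 31 of the 43 lysosomal genes. CACGTG was present in 9 of the 31 genes (29%) and in 8.78% of 27305 genes with a promoter, or 12.3% of those tested. TCACGTGA was present in 5 of the 31 genes (16.1%) and in 1.18% of the 27305 genes, or 2.08% of those tested. One window of 28 bases is shown for each of these 5 genes, with TCACGTGA in capitals, since they hold the stricter form. The windows are *GAA* at chr17:80101494-80101521, *CTSA* at chr20:45891299-45891326, *LAMP1* at chr13:113297227-113297254 and *MCOLN1* at chr19:7522572-7522599 on the forward strand, and *ATP6V0D1* at chr16:67481200-67481227 on the reverse strand.

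*GAA*: ggaggccgcgTCACGTGAcccaccgcgg
*CTSA*: gcgccggagtTCACGTGActcgtacaca
*LAMP1*: gcggcgcagcTCACGTGAcaagcgctgc
*MCOLN1*: ccagaggcggTCACGTGAggggctctgg
*ATP6V0D1*: ccccttatggTCACGTGAggcgcttgcg

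None of these 5 genes passed the test, and their log2 fold changes ranged from -0.06 for *ATP6V0D1* to 0.12 for *LAMP1* around a median of 0.06. The 9 genes with CACGTG, which also include *NEU1*, *ARSB*, *CTSD* and *CD63*, had log2 fold changes between -0.06 and 0.23. *GALC*'s promoter holds neither form in this window.

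The remaining genes of the lysosomal pathway were given by 5 lists with 166 genes, of which 156 were tested. At a limma adjusted p under 0.05, 5 were higher (3.21%) and 10 were lower (6.41%), and the median log2 fold change was -0.06. Among all tested genes 5.62% were higher and 7.36% were lower, with a median of -0.04. Both shares of the pathway genes lay below these, and the counts of the single lists that follow are small. Among 46 tested lysosomal hydrolases and membrane proteins outside the 43 genes, 2 were higher, among them *CTSF*, and 2 were lower, among them *GALNS*. *CTSF*, a cathepsin, had 0.148, 0.141 and 0.236 RPKM in overexpressing cells and 0.0155, 0.0112 and 0.0559 RPKM in control cells, a log2 fold change of 1.11 (limma adjusted p = 0.0472) that rests on 37 and 8 reads. Like *GALC* and *CTSZ*, it passed the filter only through the overexpressing libraries. *GALNS*, a sulfatase, decreased by 0.35 on the log2 scale.

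Of 18 other proton pump subunits, *ATP6V0A1* alone passed the test, with 1.38 ± 0.0453 RPKM in overexpressing cells and 1.89 ± 0.0452 RPKM in control cells (SD, n = 3 each) and a log2 fold change of -0.42. Of 41 tested autophagy genes, 2 were higher and 3 were lower. *OPTN*, a cargo receptor for mitochondria and bacteria, had the largest log2 fold change among them at 0.52 (limma adjusted p = 0.00168). *CALCOCO2*, another cargo receptor, and *PIK3C3*, the kinase that makes phosphatidylinositol 3-phosphate, had log2 fold changes of -0.39 and -0.36. Of 20 tested genes of the *TFEB* family and of mTORC1 regulation at the lysosome, 2 were lower and none was higher. *RRAGD*, a Rag GTPase that recruits mTORC1, had 2.17, 2.63 and 2.4 RPKM in overexpressing cells and 3.89, 3.58 and 3.52 RPKM in control cells, and all of the first lay below all of the second. Its log2 fold change was -0.59 (limma adjusted p = 0.0095), and that of *FNIP2*, a partner of folliculin, was -0.46 (limma adjusted p = 0.0173). *MITF*, another relative of *TFEB*, had a log2 fold change of 0.05 with 1.88 ± 0.0743 and 1.81 ± 0.0616 RPKM (SD, n = 3 each).

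Of 31 tested genes of sphingolipid synthesis and turnover, 1 was higher and 2 were lower. *ST3GAL5*, which makes the ganglioside GM3, had a log2 fold change of 0.49 (limma adjusted p = 0.0115). *B4GALNT1*, which makes GM2, and *SPHK1*, which phosphorylates sphingosine, had log2 fold changes of -0.46 and -0.32. These enzymes act outside the lysosome.

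**Figure D4:**
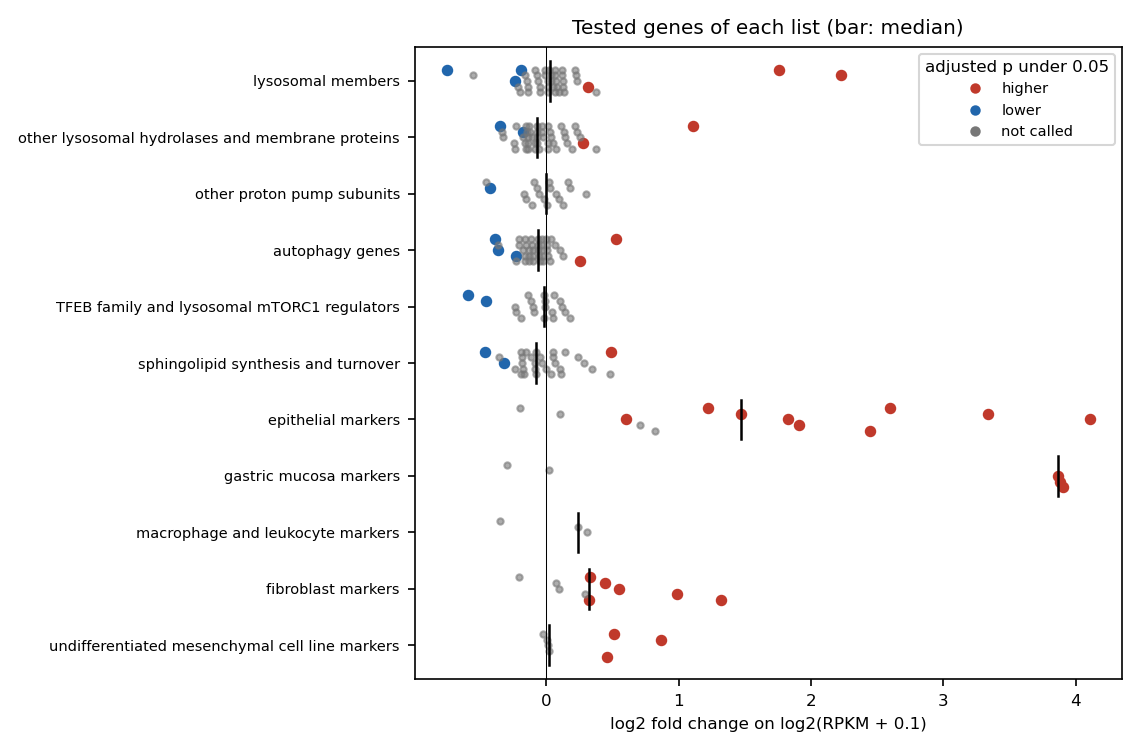
Log2 fold change on log2(RPKM + 0.1) of each tested gene of the lysosomal genes, of 5 pathway lists and of 5 lists of cell type markers, 1 list per row, with the median as a bar and genes at an adjusted p under 0.05 in red (higher) or blue (lower). The lysosomal and pathway lists centre near 0, while the epithelial markers centre at 1.47 and 3 gastric mucosa markers lie near 3.9.

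Lists of cell type markers were measured beside these results, since *GALC*, *CTSZ*, *CTSH* and *CTSF* were near 0 in control cells. Of 13 tested epithelial markers, 9 were higher in overexpressing cells and none was lower at a limma adjusted p under 0.05. The 16 epithelial markers summed to between 23.6 and 33.2 RPKM in overexpressing cells and to between 5.99 and 6.45 RPKM in control cells. Of 13 gastric mucosa markers with a row, 5 were tested and *CTSE*, *LYZ* and *PLA2G2A* were higher, while 7, among them the gastric mucin *MUC5AC*, stayed under 0.1 RPKM in every library. *MUC6* and *ATP4A*, the other tested ones, had log2 fold changes of 0.02 and -0.30 and did not pass the test. The 13 markers summed to between 9 and 11.3 RPKM against 0.704 to 0.775 RPKM. In overexpressing cells that sum came mostly from *LYZ*, *PLA2G2A* and *CTSE*, the first 2 with means of 4.06 and 3.08 RPKM. *CTSE*, an endosomal protease of gastric epithelium outside the 43 genes, had 2.46 ± 0.418 RPKM against 0.0748 ± 0.0512 RPKM (SD, n = 3 each). Of 10 tested fibroblast markers, 6 were higher, with sums of 277 to 283 RPKM against 202 to 220 RPKM. Markers of macrophages and leukocytes, which are rich in *CTSS*, *CTSZ*, *CTSC* and *CTSH*, summed to between 0.395 and 0.611 RPKM in overexpressing cells and to between 0.311 and 0.615 RPKM in control cells. These sums overlapped, *CD163* was at 0 in every library, and none of the 3 tested markers was higher or lower. Of 7 tested markers of undifferentiated mesenchymal cell lines, *SNAI2*, *TWIST1* and *FN1* were higher and none was lower. *FN1* cannot be read as a marker here, since its 3′-UTR was overexpressed and its deposited value covers all exons. Of all tested genes, 5.62% were higher and 7.36% were lower. The part of these marker genes in the results for *GALC*, *CTSZ* and *CTSH* was not tested. In bulk RNA a larger share of cells that express a gene and more RNA of that gene per cell cannot be told apart.

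The genes around *GALC* were compared to see whether its rise was shared along the chromosome. Within 1 Mb of the lowest coordinate of *GALC* lay 17 other gene rows, of which 6 were tested and 11 had too few reads. None of the 6 was higher at a limma adjusted p under 0.05. They lay between 547 and 986 kb away. *EML5* was lower, with 3.94 ± 0.157 RPKM in overexpressing cells and 4.7 ± 0.185 RPKM in control cells (SD, n = 3 each) and a log2 fold change of -0.25 (limma adjusted p = 0.0309). That call was lost in the fit with the replicate block, in the fit without a trend in the variance and in each fit that left out a library. The other 5 had log2 fold changes between -0.12 and 0.22, among them *TTC8*, at 15.7 ± 0.126 against 15.6 ± 0.161 RPKM (SD, n = 3 each). *GPR65* and *KCNK10*, the protein-coding genes nearest to *GALC* on one side, had 1 and 5 reads in the overexpressing libraries together and 0 and 21 reads in the control libraries. The pseudogene *FAM35CP*, within the span of *GALC* on the other strand, had 6 reads in each group.

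**Figure D5:**
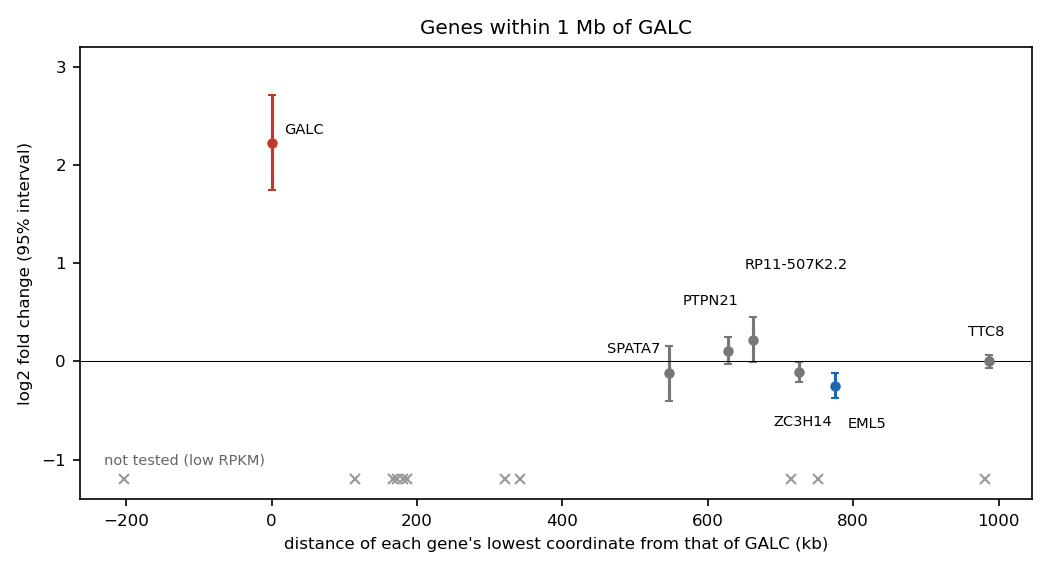
Log2 fold change on log2(RPKM + 0.1) with its 95% interval for *GALC* and the 6 tested genes within 1 Mb, against the distance in kb of each gene's lowest coordinate from that of *GALC*. Crosses mark the 11 genes with too few reads to test. *GALC* lies at 2.23, and the 6 neighbours lie between -0.25 and 0.22.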

How the data were processed

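RNA-seq of 3 HGC27-FN1 3′-UTR and 3 HGC27-control libraries was analysed, with groups and replicate numbers taken from the sample labels. Each library has 1 deposited table of RPKM per gene, with GRCh38 coordinates. The submitters' processing notes name Trimmomatic 0.36, STAR 2.5.3a and featureCounts of Subread 1.5.1. The annotation release and the strand setting of the counting are not given in the sources used here, so genes that overlap on either strand may share reads. Of the 43 lysosomal genes, 16 shared exonic bases with another gene, none of them among the 6 with an adjusted p under 0.05.

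The members and lists were chosen with earlier results of these data known. RPKM multiplied by gene length gave whole numbers of reads for 100% of the values above 0 (tolerance 0.05), which gave 16357085 to 37037532 reads per library and a floor of 3 reads at 0.081 to 0.183 RPM. Floors and intervals made from reads hold for counting error alone. No pair of libraries of 1 group agreed within sampling noise (chi-square per gene 2.67 to 6.19).

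limma 3.58.1 in R 4.3.3 was fitted to log2(RPKM + 0.1) with group as the only term and a trend in the prior variance, for 23299 genes that reached 0.1 RPKM in 3 or more libraries. All limma tests were two-sided with Benjamini-Hochberg adjustment over the tested genes. An exact permutation test of 3 against 3 libraries cannot give a two-sided p below 0.1. On simulated reads, 190 of the 199 tested genes changed 4-fold were recovered and 23 unchanged genes were called, and with no gene changed 0 of 23304 genes were called. The changes were placed only in genes with more reads than *CTSZ*, *CTSH* and *CTSF* had, and every gene was given the same replicate spread. The simulation therefore does not test recovery for genes with so few reads, or with the spread of these libraries.

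Genes were named by rule, namely *GALC*, the 5 largest rises and falls among members with an adjusted p under 0.05, the 5 most highly expressed members, *TFEB*, *TFE3*, *SQSTM1*, members that failed the filter, up to 4 examples of each role, and up to 3 genes of each other list. Further members were named after their values were seen. Alternatives were the pseudocount, the filter, the replicate number as a block, median-ratio scaling, voom with TMM factors on the recovered reads, no variance trend, and each library left out. After the data were examined, fits that left out a library but kept the 23299 genes were added. 9 listed marker genes were not analysed here, and some genes of the other lists are counted but not reported here by name. Of the 43 genes, 38 had the same start and end in GENCODE release 29. Python 3.11.15, pandas 2.3.3 and matplotlib 3.10.9 were used for tables and figures.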

Additional observations from a re-analysis of the deposited data

How the results depend on the processing

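*GALC* stayed higher and *TFEB* stayed lower at a limma adjusted p under 0.05 in all 16 and all 20 alternative fits that tested them, while the calls of *CTSZ*, *CTSC*, *PSAP* and *CTSB* were lost in 11 of 16, 11 of 20, 10 of 20 and 15 of 20. Fits that left out a library were run both with the filter on the libraries left and with that on all 6. These counts therefore hold near-duplicates and are not separate checks. With a minimum of 0.1 RPKM in 3 of the libraries left, *GALC* and *CTSZ* were not tested once a library of the overexpressing cells was left out. The cause of the losses was not tested, apart from the smaller number of libraries or genes.

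The number of higher lysosomal genes, 3 as reported, was 1 with a mean RPKM of at least 1, which leaves out *GALC* and *CTSZ*, 1 with the replicate block, 5 with median-ratio scaling and 10 with voom. The share of all tested genes that were higher, 5.62% as reported, was 8.27%, 2.42%, 7.28% and 11.1% in these fits. The number of lower genes, 3 as reported, was 1 without a variance trend, where the share of all tested genes fell from 7.36% to 5.58%. With a library left out, between 0 and 2 were higher and between 1 and 2 were lower. The counts of 0 came from fits without an overexpressing library in which *GALC* and *CTSZ* were not tested. In the fits that left out a library, 2.03% to 4.08% of all tested genes were higher and 1.85% to 4.46% were lower. The number past the study criteria, 2 as reported, was 0 with a pseudocount of 1, 0 with a mean RPKM of at least 1, and between 0 and 2 with a library left out. The median log2 fold change of the lysosomal genes moved between -0.01, without control replicate 1, and 0.06 with a library left out. The 14 genes whose groups did not overlap stayed within 1.5 times that number with median-ratio scaling.

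The other pathway genes, 5 higher and 10 lower as reported, came to 2 and 2 with the replicate block, 8 higher with median-ratio scaling, 16 and 21 with voom, and 3 higher without a variance trend. The shares of all tested genes moved too. They were 2.42% higher and 2.57% lower with the replicate block, and 11.1% and 10.4% with voom. With a library left out between 1 and 7 were higher and between 2 and 9 were lower, with 4 or 6 lower in the fits that left out a library of the overexpressing cells or control replicate 3. The 1 gene called near *GALC*, *EML5*, was not called with the replicate block, without a variance trend or with any library left out, each a count of 0.

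Same-numbered replicates showed almost no shared deviation from their group means (correlations 0.0024, 0.021 and 0.010). Reads rose from replicate 1 to 3 in both groups, with 16357085, 24423047 and 29202046 in overexpressing cells and 22332816, 30817381 and 37037532 in control cells. Whether same-numbered libraries were handled together is not given by the labels and was not tested. The replicate block took away the calls of *CTSZ*, *CTSC* and *PSAP* and kept those of *GALC*, *TFEB* and *CTSB*.

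Signs turned only in genes that did not pass the test. *GM2A* was at 0.0202 with median-ratio scaling and 0.0128 with voom, *SCARB2* at 0.0275 and 0.0239, and *SMPD1* at -0.025 with voom. With a library left out the log2 fold changes ranged from -0.0306 to 0.0562 for *HEXA*, from -0.0866 to 0.15 for *ARSA*, from -0.0999 to 0.134 for *SMPD1*, from -0.0594 to 0.0309 for *GM2A*, from -0.0097 to 0.116 for *GAA*, from -0.0375 to 0.0793 for *MAN2B1*, from -0.117 to 0.0312 for *CTSD*, from -0.0211 to 0.0083 for *SCARB2* and from -0.111 to 0.0017 for *ATP6V0D1*. Depth limits *GALC*, *CTSZ* and *CTSH*, with 10, 10 and 11 reads in the control libraries together.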
